A study of Mus musculus with 23 samples.

Results

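Cd36, Scd1 and Lrp1 were described in 23 mouse mammary carcinomas, 12 from animals given abemaciclib and 11 from animals given vehicle. They were taken by name as the genes of lipid uptake and desaturation, 3 of the 3826 genes on a targeted amplicon panel, and all 3 passed the filter on low counts that left 2925 genes for testing. The names were chosen with the difference between abemaciclib and control tumours already known, so that difference is given for each of the 3 as a description with no test, and tests are kept for other lipid genes and for relations between tumours of 1 group.

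Cells take up fatty acids and lipoproteins through surface receptors and remodel them once inside. CD36 is a scavenger receptor that binds long-chain fatty acids, oxidised lipoproteins and thrombospondins, and it is made by adipocytes, macrophages, capillary endothelium, platelets and the secretory epithelium of the mammary gland. LRP1, a large endocytic receptor of the LDL receptor family, takes up remnant lipoproteins that carry apolipoprotein E along with proteases and their inhibitors, and is abundant on macrophages and fibroblasts. SCD1 sits in the endoplasmic reticulum and puts a double bond into saturated fatty acids, which makes oleate and palmitoleate, and it is a target of the transcription factors SREBP-1c and LXR.

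Abemaciclib blocks CDK4 and CDK6, kinases that drive cells into S phase. The abemaciclib animals received 90 mg/kg each day by gavage and the control animals received vehicle. All animals, controls included, had been given doxycycline at an age of 6 weeks to induce tumours, and were randomized so that both groups had the same mean tumour volume. The sources used here name neither the strain nor any transgene that doxycycline switched on. Tissue was frozen after the 12th dose, and the hours between that dose and freezing cannot be read in the labels. Nothing in the labels says whether any tumours share an animal, so p-values measure the spread between tumours. The libraries held 2756919 to 4990391 counts in abemaciclib tumours and 3044380 to 4492736 in control tumours. Genes of luminal mammary epithelium were present in every tumour, with a summed level over 11 marker genes of 5617 to 12042 CPM (counts scaled to the size of each library by TMM) in abemaciclib tumours and 6175 to 9025 CPM in control tumours, although Foxa1 was at 0 counts in some. Each gene was read through 1 short amplicon of its own, so CPM values are compared between tumours and not between genes. In bulk tissue, fewer cells of a type and less RNA per cell cannot be told apart.

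Cd36 (ENSMUSG00000002944.15) lies on the minus strand of chromosome 5 from 17781690 to 17888801 and has 6 annotated protein-coding transcripts. Scd1 (ENSMUSG00000037071.3) lies on the minus strand of chromosome 19 from 44394455 to 44407879, with 2 such transcripts and 6 exons in the longest. Lrp1 (ENSMUSG00000040249.15) lies on the minus strand of chromosome 10 from 127538161 to 127621148, and its longest transcript joins 89 exons over 14888 bases. These are positions of the genes in GRCm38 (mm10). The sources used here do not say which exon each amplicon reads. Scd1 has close paralogues in the mouse, Scd2 among them, so reads counted for Scd1 could include theirs.

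The 250 bases before the start that RefSeq gives are shown for Cd36 and Lrp1, and for Fabp3, the gene whose levels followed those of Cd36 most closely across these tumours. The sequences are from RefSeq on GRCm38.p6, read 5′ to 3′ along the gene's strand. They lie at chr5:17835897-17836146 on the minus strand for Cd36, chr4:130308488-130308737 on the plus strand for Fabp3 and chr10:127621149-127621398 on the minus strand for Lrp1. The RefSeq start of Cd36 is an internal one, since the GENCODE gene reaches upstream to 17888801, so the stretch lies before 1 alternative start. The GENCODE start of Fabp3, 130308595, falls inside its stretch, and the Lrp1 stretch ends where the GENCODE gene begins. Capitals mark matches to a GC box (GGGCGG) or a CCAAT box (CCAAT), searched on both strands.
Cd36: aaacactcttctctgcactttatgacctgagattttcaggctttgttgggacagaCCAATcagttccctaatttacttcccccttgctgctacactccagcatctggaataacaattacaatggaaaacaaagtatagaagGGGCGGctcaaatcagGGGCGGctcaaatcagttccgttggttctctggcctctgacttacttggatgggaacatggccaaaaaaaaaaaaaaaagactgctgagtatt
Fabp3: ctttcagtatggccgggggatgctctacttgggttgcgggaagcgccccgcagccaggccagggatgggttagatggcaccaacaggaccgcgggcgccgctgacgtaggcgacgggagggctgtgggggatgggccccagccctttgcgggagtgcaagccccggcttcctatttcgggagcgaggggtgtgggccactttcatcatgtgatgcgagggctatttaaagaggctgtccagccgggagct
Lrp1: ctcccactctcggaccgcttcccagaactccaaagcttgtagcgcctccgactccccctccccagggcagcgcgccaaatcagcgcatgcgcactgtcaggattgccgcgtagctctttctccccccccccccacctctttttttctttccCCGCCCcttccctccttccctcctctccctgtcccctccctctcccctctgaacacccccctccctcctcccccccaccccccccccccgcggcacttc
The Cd36 stretch held 2 GC boxes and 1 CCAAT box, the Lrp1 stretch 1 GC box, and the Fabp3 stretch neither. No match to an E box (CACGTG) or a TATA box (TATAAA) was found in any of the 3. No 2 marked matches overlapped. Of 32851 promoter stretches of this length, 32.7% held a GC box, 33.8% a CCAAT box, 6.02% an E box and 12.4% a TATA box. The Cd36 stretch was 43.2% G and C with 3 CpG dinucleotides, the Fabp3 stretch 64.8% with 17, and the Lrp1 stretch 67.2% with 13, against medians of 52.4% and 6 over all stretches. A match of letters is a description, not a binding site. Scd1 had no such sequence to show.

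Cd36 differed most between the groups and varied most between abemaciclib tumours. In control tumours Scd1 varied slightly more, with an SD of log2 CPM of 0.996 against 0.922 for Cd36. The level of Cd36 was 13.4 CPM in the lowest, 44.1 CPM in the median and 260.6 CPM in the highest abemaciclib tumour. In control tumours these were 7.82, 24.9 and 63.2 CPM. The groups overlapped, with abemaciclib tumours 1, 5, 6, 7 and 12 above every control tumour and abemaciclib tumours 3 and 10 below the control median. The mean was 76.6 ± 70.2 CPM in abemaciclib tumours (SD, n = 12) and 28.5 ± 18.6 CPM in control tumours (SD, n = 11), a fitted log2 fold change of 1.43 (SE 0.431), or 2.70-fold. Cd36 was read by 36 to 1014 counts per tumour. Abemaciclib tumour 12 held the highest value, and the log2 fold change was 1.07 without it.

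Scd1 was among the most abundantly read genes of the panel and overlapped between groups more than Cd36 did. It was at 2192 CPM in the lowest, 3654 CPM in the median and 17868 CPM in the highest abemaciclib tumour, against 795.4, 2739 and 7927 CPM in control tumours. Abemaciclib tumours 1, 5 and 12 lay above every control tumour, and 10 of 12 lay above the control median. The mean was 5808 ± 4578 CPM in abemaciclib tumours (SD, n = 12) and 3213 ± 2241 CPM in control tumours (SD, n = 11), with a log2 fold change of 0.85 (SE 0.384). In abemaciclib tumour 5 this 1 amplicon took 1.48% of all counts, and without that tumour the log2 fold change was 0.55.

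Lrp1 showed the smallest difference of the 3 and the most even one. It was at 392.3 CPM in the lowest, 449.3 CPM in the median and 602.8 CPM in the highest abemaciclib tumour, against 211.4, 331.3 and 476.2 CPM in control tumours. All 12 abemaciclib tumours lay above the control median, and abemaciclib tumours 3, 4, 6 and 12 lay above every control tumour. The mean was 472.1 ± 63.8 CPM in abemaciclib tumours (SD, n = 12) and 333.7 ± 76.5 CPM in control tumours (SD, n = 11), with a log2 fold change of 0.50 (SE 0.114). Control tumours 2 and 11 lay inside the abemaciclib range, and control tumour 6 held the lowest value. Leaving out any single tumour gave a log2 fold change from 0.45 to 0.56.

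**Figure D1:**
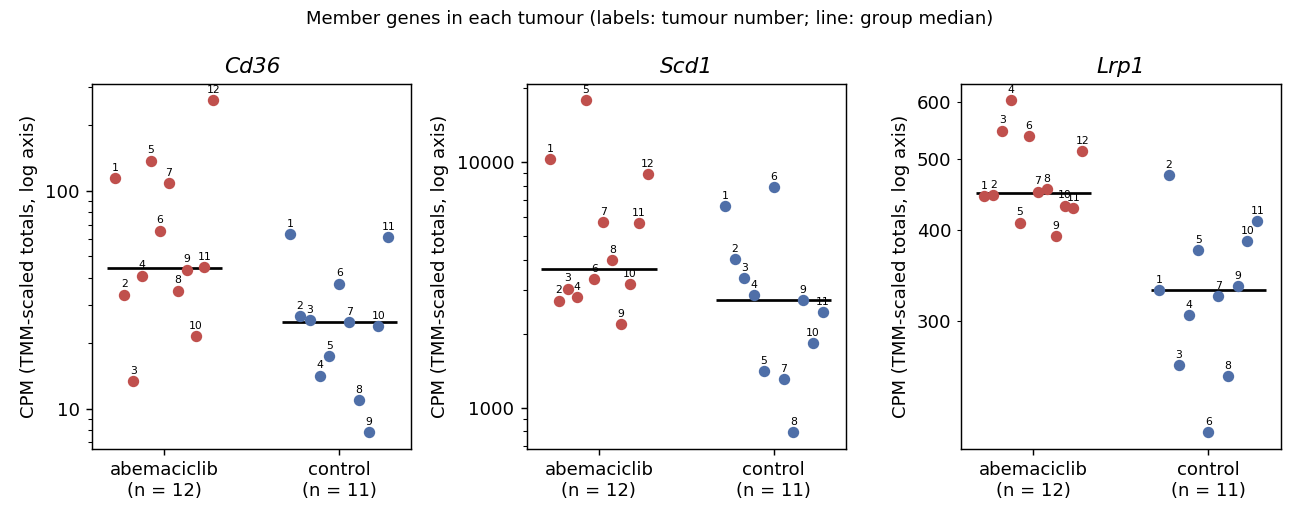
Level of Cd36, Scd1 and Lrp1 in each tumour as CPM on a log axis, abemaciclib tumours left (n = 12) and control tumours right (n = 11), each point labelled with its tumour number and the line at the group median. Cd36 spans 13.4 to 260.6 CPM in abemaciclib tumours and Lrp1 only 392.3 to 602.8 CPM, with all 12 Lrp1 values above the control median.

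For all genes tested by edgeR's quasi-likelihood test, 0 of 2925, or 0%, differed between abemaciclib and control at a Benjamini-Hochberg adjusted p under 0.05, and 13.4% had an unadjusted p under 0.05, 7.59% higher and 5.81% lower with abemaciclib. By DESeq2 2.05% of the same genes passed, and by limma-voom 4.34%. At least 10 of 12 abemaciclib tumours lay above the control median for Cd36, Scd1 and Lrp1, as for 8.51% of tested genes. For Lrp1 12 of 12 did so, as for 0.855%, and at least 11 of 12 did so for 3.62%. These shares stand beside the members as background only, because the members were chosen on this difference. The 3 genes also differed in spread. The SD of log2 CPM within groups was 1.08 for Cd36, 0.96 for Scd1 and 0.27 for Lrp1, against a median of 0.37 over tested genes. Cd36 and Scd1 were thus more variable than 96.8% and 95.2% of tested genes, and Lrp1 more variable than 25.4%.

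Whether tumours high in 1 of these genes were high in another was asked within each group, where the difference between groups plays no part. Cd36 and Scd1 went together in abemaciclib tumours. The 4 abemaciclib tumours with the most Cd36, numbers 1, 5, 7 and 12, were also the 4 with the most Scd1. Among control tumours 3 of the highest 4 were shared, numbers 1, 2 and 6. Pearson's r was 0.76 in abemaciclib tumours (n = 12, permutation test, p = 0.00424, adjusted p = 0.0315 over 42 relations) and Spearman's rho 0.76 (permutation p = 0.00542, adjusted p = 0.0455). In control tumours r was 0.53 (n = 11, permutation p = 0.0902, adjusted p = 0.223) and rho 0.58 (permutation p = 0.0643, adjusted p = 0.194). The relation thus passed in abemaciclib tumours and not in control tumours, and the difference between the groups was not tested. Without the 2 tumours farthest from the median of Cd36, r was 0.79 in abemaciclib tumours and 0.55 in control tumours. With libraries scaled to their totals alone, r in abemaciclib tumours was 0.69 (adjusted p = 0.0758, permutation test), and over the single tumours left out in turn it was 0.74 to 0.78 with adjusted p of 0.0312 to 0.0622, over 0.05 without abemaciclib tumour 1, 2, 5, 7, 10 or 12.

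Lrp1 followed neither of the others. Its r with Cd36 was -0.11 in abemaciclib tumours and 0.14 in control tumours (permutation tests, p = 0.719 and p = 0.672, adjusted p = 0.816 for both). Spearman's rho was -0.20 and 0.16 (permutation p = 0.541 and p = 0.635), and r without the 2 farthest tumours -0.09 and 0.22. Its r with Scd1 was -0.25 in abemaciclib tumours and -0.13 in control tumours (permutation tests, p = 0.433 and p = 0.693, adjusted p = 0.650 and 0.816), with rho of -0.15 and -0.09 (permutation p = 0.635 and p = 0.796). Without the 2 farthest tumours r with Scd1 was 0.05 in abemaciclib tumours and -0.06 in control tumours. With 12 and 11 tumours, weaker relations cannot be seen.

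The genes whose pattern was most like each member were found over the 23 tumours after each group's mean had been removed, among 2924 other tested genes, and are given as a description with no test. Cd36 was followed most closely by 2 genes of fatty acid handling, Fabp3, a cytosolic fatty acid binding protein of muscle and mammary gland, at an r of 0.84, and Lpl, lipoprotein lipase, which frees fatty acids from circulating triglyceride, at 0.81. Next came Siglec1, a sialic acid receptor of macrophages, at 0.80, Fth1, the ferritin heavy chain, at 0.78 and Mgat4b, a glycosyltransferase, at 0.78. Lpl was at 460.2 CPM in abemaciclib tumour 1 and 456.7 CPM in abemaciclib tumour 12, the same tumours that were high in Cd36. Its r with Cd36 was 0.96 in abemaciclib tumours and 0.62 in control tumours.

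Lpl and Fabp3 followed Scd1 as well, at an r of 0.76 and 0.71, but its 5 nearest genes were others. They were Mdh1, cytosolic malate dehydrogenase, at an r of 0.89, Nampt, which makes a precursor of NAD, at 0.88, Acot6, an acyl-CoA thioesterase, at 0.87, Nucb2, the precursor of nesfatin-1, at 0.86 and Txnip, a regulator of thioredoxin and glucose uptake, at 0.86. Mdh1 followed Scd1 in both groups, with r of 0.88 in abemaciclib tumours and 0.90 in control tumours. Lrp1 had no gene as close. Its nearest were Fgr, a SRC-family kinase of myeloid cells, at 0.69, the transcription factor Zeb2 at 0.68, the secreted glutathione peroxidase Gpx3 at 0.68, the formin Diap2 at 0.66 and Csf2rb, the shared beta chain of cytokine receptors, at 0.66. In the same order, r with Lrp1 was 0.59, 0.45, 0.26, 0.43 and 0.72 in abemaciclib tumours. In control tumours it was 0.75, 0.77, 0.85, 0.86 and 0.64. The 3 sets of 5 nearest genes had no gene in common.

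Genes of 8 lipid lists shared the pattern of Cd36 and Scd1 more often than panel genes at large did. This is a description over 88 tested genes beyond the members. Of these, 21 (23.9%) had an r above 0.5 with Cd36, against 9.17% of all other tested genes, and 25 (28.4%) had one with Scd1, against 14.03%. With Lrp1 it was 0 of 88, against 1.20%. The 88 genes hold 21 for ligands of LRP1 and CD36, among them proteases and complement C3, so they are not all genes of lipid metabolism.

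Marker genes of 6 kinds of cell or state were then set beside each member, within each group, as the mean log2 CPM of the list. Of the 42 relations in this family, counting those between members, 8 passed at an adjusted p under 0.05 by Pearson's r and 5 by Spearman's rho. The strongest joined Scd1 to markers of luminal mammary epithelium in control tumours. There r was 0.94 (n = 11, permutation test, p = 1e-05, the smallest that these permutations can give, adjusted p = 0.00042) and rho 0.99 (permutation p = 1e-05, adjusted p = 0.00042). It was 0.91 without control tumours 7 and 8, the 2 farthest from the median of that score. In abemaciclib tumours the same r was 0.25 (n = 12, permutation p = 0.433, adjusted p = 0.650) and rho 0.17 (permutation p = 0.587), and r was -0.48 without abemaciclib tumours 3 and 5. The difference between these 2 values was not tested.

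Mitotic genes, which mark dividing cells, ran opposite to both Scd1 and Cd36. For Scd1 r was -0.72 in abemaciclib tumours (n = 12, permutation p = 0.00827, adjusted p = 0.0434) and -0.84 in control tumours (n = 11, permutation p = 0.00175, adjusted p = 0.0245), with rho of -0.82 (permutation p = 0.00191, adjusted p = 0.0267) and -0.74 (permutation p = 0.0125, adjusted p = 0.0752). For Cd36 r was -0.73 in abemaciclib tumours (n = 12, permutation p = 0.00716, adjusted p = 0.0430) and -0.66 in control tumours (n = 11, permutation p = 0.0263, adjusted p = 0.0960), with rho of -0.79 (permutation p = 0.00329, adjusted p = 0.0345) and -0.62 (permutation p = 0.0493, adjusted p = 0.173). In abemaciclib tumours the Scd1 relation missed the threshold when any 1 of the 12 tumours was left out (adjusted p = 0.0503 to 0.0961, permutation tests), and the Cd36 relation did so for 10 of 12, all but tumours 11 and 12 (0.0307 to 0.10). In control tumours the Scd1 relation missed it without control tumour 8 alone (adjusted p = 0.0618, permutation test). Without the 2 farthest tumours r for Scd1 was -0.72 in abemaciclib and -0.67 in control tumours, and r for Cd36 was -0.68 in abemaciclib and -0.36 in control tumours. All 15 tested mitotic genes had negative log2 fold changes between the groups, with a median of -1.03. By edgeR 0 of 15 passed the threshold over all genes, but 15 of 15 were lower at an unadjusted p under 0.05. Of all tested genes 5.81% were lower at that unadjusted p. The part of this difference in the levels of Cd36 and Scd1 was not tested.

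**Figure D2:**
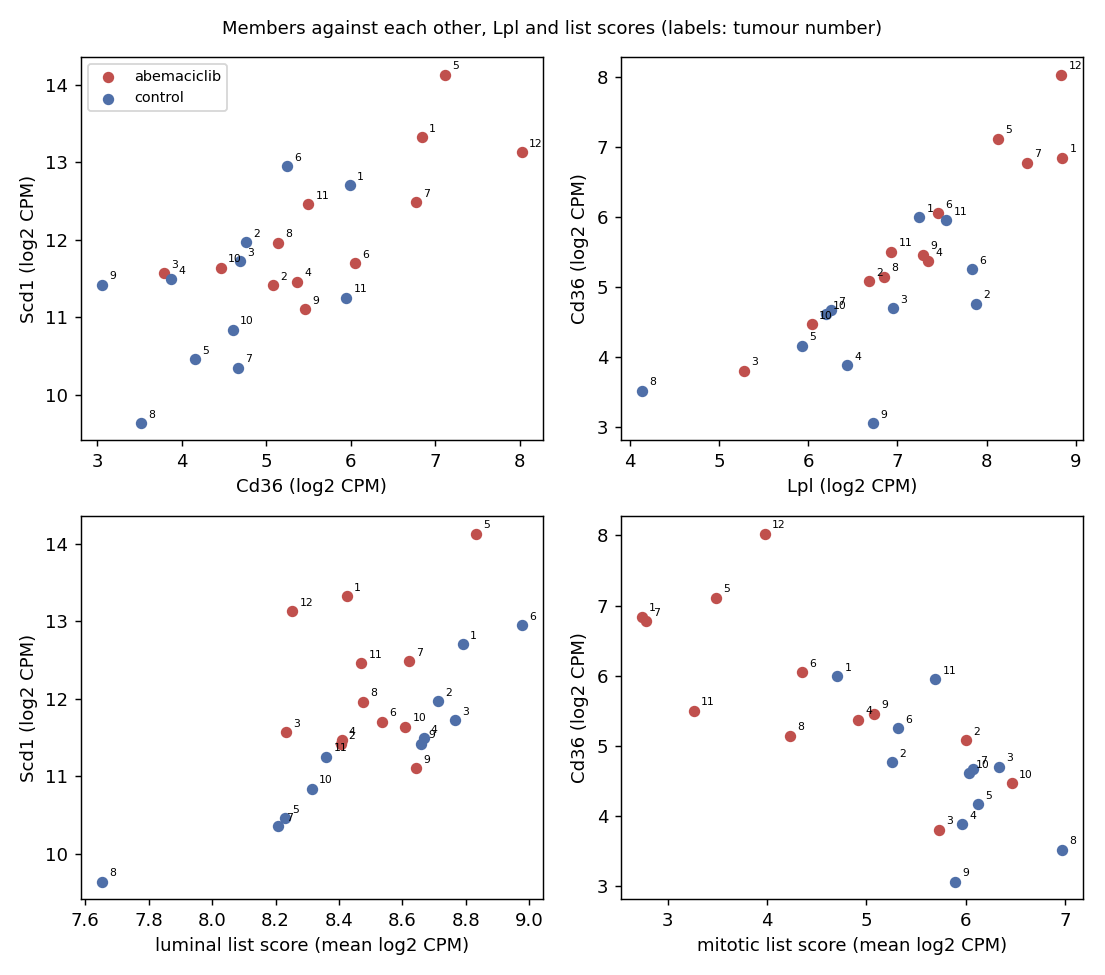
Log2 CPM of members against each other, against Lpl and against the mean log2 CPM of luminal and mitotic lists, with 1 point per tumour (abemaciclib red, n = 12; control blue, n = 11) labelled with its number. Among abemaciclib tumours, numbers 1, 5, 7 and 12 are highest in Cd36 and in Scd1, Cd36 climbs with Lpl at an r of 0.96 in abemaciclib tumours, and Scd1 climbs with the luminal score at an r of 0.94 in control tumours.

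Cd36 was also related to 2 other marker lists in abemaciclib tumours. With macrophage markers r was 0.85 (n = 12, permutation p = 0.00059, adjusted p = 0.0124) and rho 0.84 (permutation p = 0.00099, adjusted p = 0.0208), and r was 0.81 without abemaciclib tumours 2 and 12. In control tumours r with macrophage markers was -0.02 (n = 11, permutation p = 0.947, adjusted p = 0.995), rho was 0.11 (permutation p = 0.756), and r without the 2 farthest tumours was 0.40. With adipocyte markers r was 0.76 in abemaciclib tumours (n = 12, permutation p = 0.00353, adjusted p = 0.0315) and 0.54 in control tumours (n = 11, permutation p = 0.0848, adjusted p = 0.223). Spearman's rho was 0.73 in abemaciclib tumours and 0.55 in control tumours (permutation p = 0.00852 and p = 0.0833), and neither passed (adjusted p = 0.0596 and 0.206). Without the 2 farthest tumours r was 0.64 in abemaciclib and 0.21 in control tumours, and leaving out abemaciclib tumour 1, 3, 7, 10 or 12 alone lost the threshold (adjusted p up to 0.111, permutation tests). Lpl, which had an r of 0.96 with Cd36 in abemaciclib tumours, is 1 of the 6 tested genes of the adipocyte list. The macrophage relation thus passed in abemaciclib tumours alone, and whether it differs from that in control tumours was not tested. With library totals alone these 2 values in abemaciclib tumours were 0.58 for macrophage and 0.63 for adipocyte markers (permutation tests, adjusted p = 0.171 and 0.109).

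Scd1 ran opposite to fibroblast markers in abemaciclib tumours, with an r of -0.76 (n = 12, permutation p = 0.00450, adjusted p = 0.0315) and rho of -0.68 (permutation p = 0.0189, adjusted p = 0.0991), or -0.60 without abemaciclib tumours 5 and 12. Leaving out abemaciclib tumour 3, 5, 9 or 10 alone lost the threshold (adjusted p up to 0.0668, permutation tests). In control tumours its r with them was 0.0018 (n = 11, permutation p = 0.996, adjusted p = 0.996), rho -0.14 (permutation p = 0.694), and r without the 2 farthest tumours -0.37. For Lrp1, 0 of 12 relations with marker lists passed. Their r ran from -0.64 to 0.46, and the smallest adjusted p was 0.0960 (permutation test), for luminal epithelium in abemaciclib tumours. Endothelial markers passed with none of the 3 genes.

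**Figure D3:**
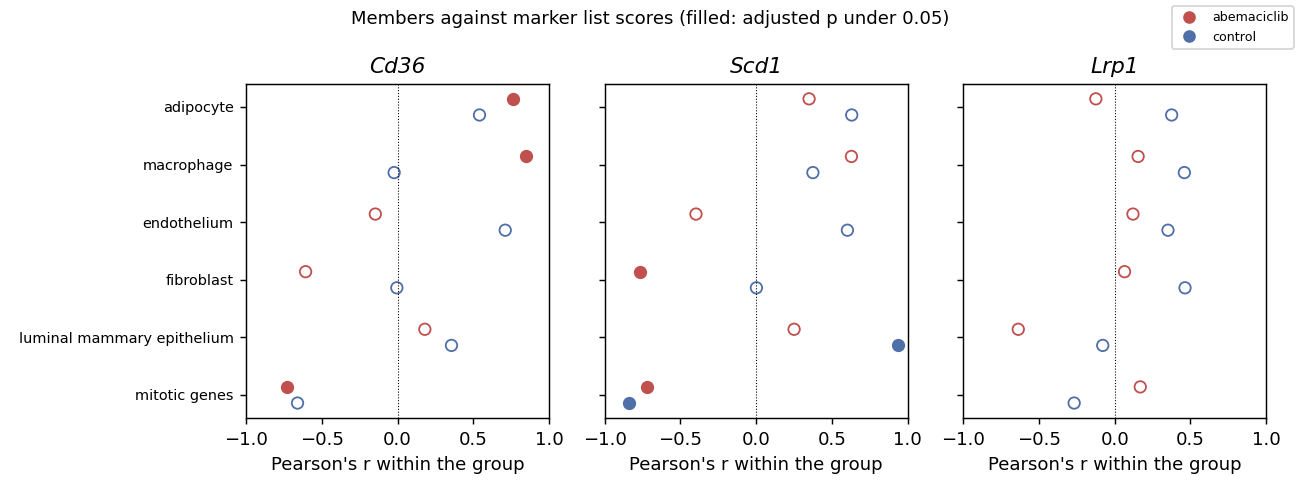
Pearson's r within each group between log2 CPM of Cd36, Scd1 or Lrp1 and the mean log2 CPM of 6 lists (abemaciclib red, control blue; filled points have an adjusted p under 0.05, permutation test). Of these 36 points 7 are filled, 3 for Cd36, 4 for Scd1 and 0 for Lrp1, and the mitotic list is negative for Cd36 and Scd1 in both groups.

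The levels of these other cell types are given beside the members. Macrophage markers, which include sources of Cd36 and Lrp1, had positive log2 fold changes in 9 of 9 tested genes with a median of 0.45, 0 of 9 past the threshold by edgeR and 5 of 9 at an unadjusted p under 0.05, and their sum over 10 genes was 2010 to 4730 CPM in abemaciclib tumours and 1529 to 3127 CPM in control tumours. By DESeq2 and by limma-voom 3 of 9 passed, Msr1, Fcgr3 and C1qa, all higher with abemaciclib. Of all tested genes 2.05% and 4.34% passed by these 2 tools, and 7.59% were higher at an unadjusted p under 0.05 by edgeR. Marco, a scavenger receptor of some macrophages, was at 0 counts in some tumours. Adipocyte markers were positive in 5 of 6 with a median of 0.29, and their sum over 8 genes was 146 to 713 CPM in abemaciclib tumours and 122 to 498 CPM in control tumours. The defining adipocyte hormones Adipoq and Lep were low, Adipoq at a median of 2.75 CPM in abemaciclib tumours and 0.67 CPM in control tumours, and both were at 0 counts in some tumours. Endothelial markers were positive in 8 of 9 with a median of 0.10 and summed to 310.2 to 717 CPM in abemaciclib tumours and 393 to 841 CPM in control tumours. Fibroblast markers were positive in 8 of 10 with a median of 0.34. Basal and myoepithelial markers were positive in 6 of 6 (median 0.57), T and B lymphocyte markers in 4 of 4 (0.35) and luminal markers in 5 of 10 (0.03). With library totals alone macrophage markers stayed positive in 9 of 9, with a median of 0.27. Under that scaling adipocyte markers were positive in 4 of 6 (median 0.18) and endothelial markers in 5 of 9 (0.0042). Of platelet genes only Pf4 and Ppbp passed the filter, both positive, and the sum over 3 genes was 7.31 to 31.4 CPM in abemaciclib tumours and 4.62 to 16.0 CPM in control tumours. The part of each of these in the levels of Cd36, Scd1 and Lrp1 was not tested.

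The wider lipid genes were taken from 8 lists by function, with 88 tested genes beyond the 3 members. Of these, 60 had positive and 28 negative log2 fold changes between abemaciclib and control, with a median of 0.16, while over all tested genes 51.1% were positive and the median was 0.0055. By edgeR 0 of 88 passed the threshold over all genes, and 17 had an unadjusted p under 0.05, 14 higher and 3 lower. The list of ligands of LRP1 and CD36, which includes proteases and complement C3, held 7 of the 14 and 1 of the 3. Over all tested genes the shares at that unadjusted p were 7.59% higher and 5.81% lower. With library totals alone the split was 46 positive and 42 negative, while the median of all genes was -0.12. By DESeq2 3 of the 88 passed, Msr1, Fabp3 and C3, and by limma-voom 2, Msr1 and C3, all higher with abemaciclib. C3 is from the ligand list. Of all tested genes 2.05% passed by DESeq2 and 4.34% by limma-voom, in either direction.

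Among 15 tested genes of fatty acid uptake and binding, 10 were positive with a median of 0.18. Msr1, a scavenger receptor of macrophages that like CD36 binds modified lipoproteins, was at 28.1 ± 8.30 CPM in abemaciclib tumours (SD, n = 12) and 17.0 ± 3.60 CPM in control tumours (SD, n = 11). It differed by 0.73 on the log2 scale (SE 0.168), at an adjusted p of 0.0578 by edgeR, 0.00512 by DESeq2 and 0.0187 by limma-voom, and 11 of 12 abemaciclib tumours exceeded the control median. Fabp3 was at a median of 18.8 CPM in abemaciclib tumours and 4.91 CPM in control tumours, but abemaciclib tumour 12 alone held 609.6 CPM, against at most 133.2 CPM in the other abemaciclib tumours and 29.9 CPM in control tumours. Its log2 fold change was 2.90 (SE 0.810, adjusted p = 0.0977 by edgeR, 0.0146 by DESeq2 and 0.231 by limma-voom), and 1.62 without that tumour. Lpl was at 0.76 (SE 0.390, adjusted p = 0.406 by edgeR), Acsl5, which activates long-chain fatty acids, at 0.20 (SE 0.106), and Fabp4, the adipocyte and macrophage binding protein, at -0.08 (SE 0.387, adjusted p = 0.957 by edgeR).

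The other tested receptors of the LDL receptor family differed less than Lrp1 did. Lrp1 was chosen with its difference already known, so this order is a description only. Lrp10 differed by 0.17 on the log2 scale (SE 0.0746, edgeR adjusted p = 0.303) with 12 of 12 abemaciclib tumours over the median of the controls, and Lrp6, a WNT co-receptor, was at -0.09 (SE 0.155). Dab2, an adaptor for endocytosis of these receptors, was at 0.37 (SE 0.176) and Lrpap1, the chaperone that escorts LRP1 to the surface, at 0.16 (SE 0.109). None of the 5 tested genes passed by edgeR, and 4 of 5 were positive. Whether Lrp1 differs from its relatives was not tested.

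Of 21 tested genes for ligands of LRP1 and CD36, 17 were positive with a median of 0.41, and 0 passed by edgeR. Apoe, apolipoprotein E, the lipoprotein ligand of LRP1, was at 3501 ± 1311 CPM in abemaciclib tumours (SD, n = 12) and 2376 ± 901.5 CPM in control tumours (SD, n = 11), 0.56 higher on the log2 scale (SE 0.217, edgeR adjusted p = 0.219), and 11 of 12 abemaciclib tumours exceeded the control median. C3, the central complement protein, differed by 1.11 (SE 0.324). Its adjusted p was 0.124 by edgeR, 0.0220 by DESeq2 and 0.0111 by limma-voom, and 12 of 12 abemaciclib tumours exceeded the control median. The matrix proteases Mmp13 and Mmp2, which LRP1 clears, were at 1.31 (SE 0.415) and 0.74 (SE 0.285). Mfge8, a milk fat globule protein that bridges dying cells to phagocytes, was at 0.87 (SE 0.331), with 7 of 12 abemaciclib tumours above the control median. Mmp13, Mmp2 and Mfge8 had adjusted p of 0.146, 0.216 and 0.214 by edgeR. A2m, alpha-2-macroglobulin, a protease inhibitor that LRP1 clears, had the opposite sign and is named here after its values were seen. It was at 7.38 ± 4.42 CPM in abemaciclib tumours (SD, n = 12) and 14.5 ± 8.60 CPM in control tumours (SD, n = 11), a difference of -0.98 on the log2 scale (SE 0.418, edgeR adjusted p = 0.284), with 11 of 12 abemaciclib tumours under the median of the controls.

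Scd1 stood beside 5 tested genes of fatty acid synthesis, of which 4 were positive with a median of 0.22 and 0 passed by edgeR. Acaca, acetyl-CoA carboxylase, which makes the malonyl-CoA for chain growth, was at 0.40 (SE 0.207, adjusted p = 0.407 by edgeR), and Fasn, fatty acid synthase, at 0.48 (SE 0.277, adjusted p = 0.465). Fasn was at 469.0 CPM in the lowest, 678.1 CPM in the median and 2791 CPM in the highest abemaciclib tumour, against 497.3, 664.2 and 1069 CPM in control tumours, so that the medians lay close together, and its log2 fold change was 0.25 without abemaciclib tumour 12. Acly, ATP citrate lyase, was at 0.22 (SE 0.214), and Elovl6, the elongase that lengthens palmitate, at -0.22 (SE 0.131), with 11 of 12 abemaciclib tumours under the median of the controls.

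**Figure D4:**
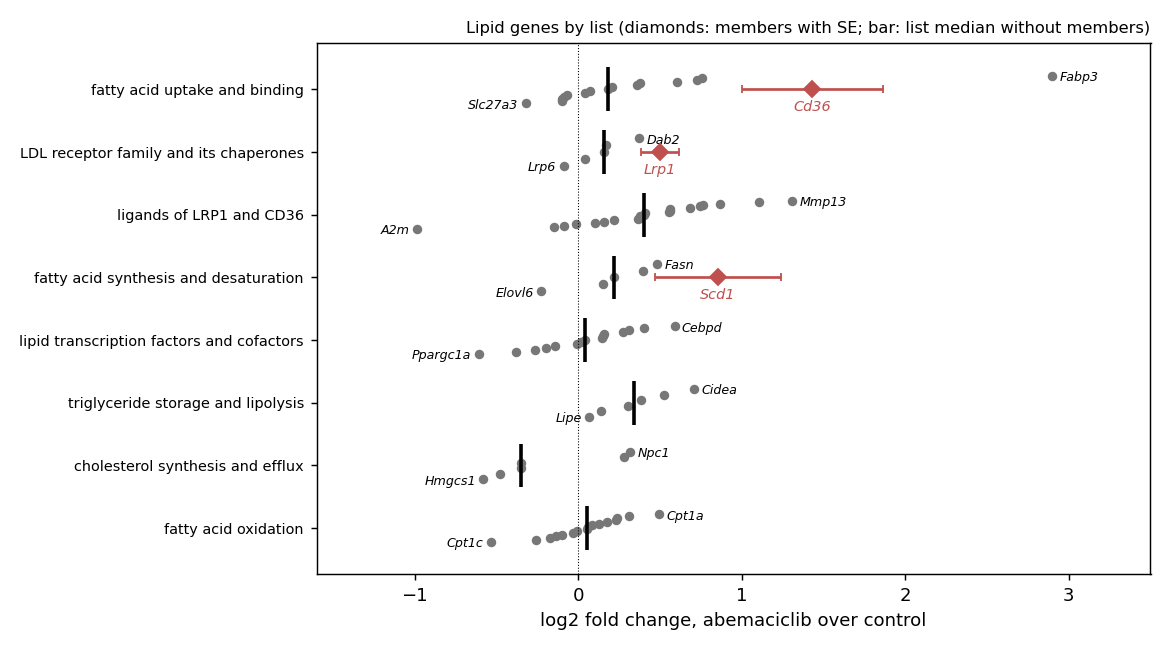
Log2 fold change of abemaciclib over control for tested genes of 8 lipid lists (grey points, 1 per gene; black bar, list median without the members) and for Cd36, Lrp1 and Scd1 (red diamonds with SE). List medians run from -0.35 for cholesterol synthesis and efflux to 0.41 for ligands of LRP1 and CD36, and the members lie at 1.43, 0.50 and 0.85.

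Regulators of these genes lay on both sides of 0. Srebf1, which encodes the SREBP-1 factors that switch on Scd1 and Fasn, was at 0.27 (SE 0.263, adjusted p = 0.686 by edgeR), and Srebf2, the regulator of cholesterol synthesis, at -0.38 (SE 0.123, adjusted p = 0.150), with 10 of 12 abemaciclib tumours under the median of the controls. Pparg, the adipocyte factor that switches on Cd36, was at 0.40 (SE 0.271) on 2 to 21 counts per tumour. Cebpa, another factor of adipocytes and macrophages, was at 0.31 (SE 0.147), Cebpd at 0.59 (SE 0.304) and the coactivator Ppargc1a at -0.61 (SE 0.326). Of 15 tested factors and cofactors 9 were positive (median 0.043), or 6 (median -0.09) with library totals alone, and 0 passed by edgeR.

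Genes of cholesterol synthesis and efflux had a negative median of -0.35 over 6 tested genes, and 0 passed by edgeR. Hmgcs1, HMG-CoA synthase, was at -0.58 (SE 0.211, adjusted p = 0.203 by edgeR). Npc2, which moves cholesterol out of lysosomes, was at 0.28 (SE 0.110, adjusted p = 0.228).

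The 6 tested genes of triglyceride storage and breakdown were positive (4 of 6 with library totals alone), had a median of 0.35, and 0 passed by edgeR. Gpam, the first enzyme of triglyceride synthesis, was at 0.39 (SE 0.210), Cidea, a lipid droplet protein, at 0.71 (SE 0.436), Lipa, lysosomal acid lipase, at 0.53 (SE 0.384) and Mgll, monoglyceride lipase, at 0.30 (SE 0.280). Of 16 tested genes of fatty acid oxidation 9 were positive with a median of 0.056, or 5 with a median of -0.07 under library totals alone, and 0 passed by edgeR. Cpt1a, which admits fatty acids to mitochondria, was at 0.49 (SE 0.194, edgeR adjusted p = 0.226), with 11 of 12 abemaciclib tumours over the median of the controls, and Acadl, a dehydrogenase of long chains, at 0.23 (SE 0.127). Cpt1c, a relative of Cpt1a found mainly in neurons, was at -0.54 (SE 0.285) on 5 to 34 counts per tumour, and Acads, a dehydrogenase of short chains, at -0.17 (SE 0.0998).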

How the data were processed

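RNA of 23 tumours was read with a custom Ion AmpliSeq panel that amplifies 1 stretch of about 110 bp for each of 3826 mouse genes, per the labels' protocols. The authors deposited raw counts of reads per gene with no normalization, with mm10 as the genome build (from the submitters' processing notes). No source used here names an aligner, a counting program or the position of any amplicon. Counts carry no molecular identifiers and include PCR copies.

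Genes were kept by filterByExpr, which set 901 aside. Counts were scaled by TMM and tested in edgeR 4.0.16 (R 4.3.3) with glmQLFit and glmQLFTest, two-sided, group as the only term, Benjamini-Hochberg over all 2925 genes at 0.05. The SE is the log2 fold change divided by the square root of F. Correlations used log2 CPM with a prior count of 2, two-sided permutation tests with 100000 resamples, and adjustment over 42 relations. Alternatives were other scalings and filters, DESeq2 1.42.0, limma 3.58.1, the replicate number as a block, and tumours left out. The fits were tested on simulated data. No pair of tumours agreed within sampling noise (chi-square per degree of freedom at least 19.0 over 253 pairs). Gene positions are from GENCODE M21.

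The members, lists and alternatives were chosen with earlier results of these data known. Named beside the members were up to 4 genes with the smallest p from each of 8 lipid lists, 12 fixed genes where on the panel, and the 5 genes most like each member. Some genes that this rule names are not reported here.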

Additional observations from a re-analysis of the deposited data

How the results depend on the processing

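The log2 fold changes of Cd36, Scd1 and Lrp1 kept their sign under each scaling, filter and test tried. Leaving out each tumour in turn gave 1.07 to 1.62 for Cd36, 0.55 to 1.08 for Scd1 and 0.45 to 0.56 for Lrp1. With library totals alone the median of all genes moved to -0.12, and the 3 values were 1.275, 0.74 and 0.38. Counts of called genes moved, and the cause was not tested: panel genes called were 47 higher and 13 lower by DESeq2, 57 and 70 by limma-voom, 32 and 61 without abemaciclib tumours 3 and 10, and 0 and 1 with library totals alone, with 0 to 21 higher and 0 to 26 lower over single tumours left out. Leaving out abemaciclib tumour 10 gave 21 genes higher and 26 lower, against 19 and 11 without abemaciclib tumour 2, 4 and 6 without abemaciclib tumour 3, 5 and 4 without control tumour 6, and at most 2 in either direction without abemaciclib tumours 5 or 9 or control tumours 1 or 5. Genes of the lipid lists called higher were 3 by DESeq2 and 2 by limma-voom. Without abemaciclib tumours 3 and 10, 3 were called higher and 1 lower. Those tumours were chosen from earlier results and are the 2 lowest abemaciclib tumours for Cd36, so that the gain in calls is no support. Over single tumours left out, 0 to 1 were called higher and 0 lower. The 1 was Msr1 without abemaciclib tumour 2, 3 or 10, and C3 without control tumour 6.

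Whether tumour numbers pair the groups was not tested. Over 11 pairs of equal number the correlation of deviations ran from -0.43 to 0.45, with 5 over 0.1. Of the abemaciclib tumours 2 correlated best with their own number. With the replicate number as a block, abemaciclib tumour 12 was left out, since no control tumour has that number. In this fit the log2 fold changes were 1.01 for Cd36, 0.72 for Scd1 and 0.51 for Lrp1, and 0 panel genes were called. Without that tumour and with no block, Cd36 was at 1.07.

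Correlations were less stable. In abemaciclib tumours r of Cd36 with Scd1 was 0.735 to 0.784 over single tumours left out, 0.693 with library totals and 0.79 without the 2 farthest tumours, the last 2 past no threshold (adjusted p = 0.0758 and 0.0833, permutation tests). In control tumours it was 0.397 to 0.657. Cd36 with Lrp1 was -0.31 to 0.106 in abemaciclib and -0.0189 to 0.374 in control tumours. Scd1 with Lrp1 was -0.492 to -0.0531 in abemaciclib and -0.442 to 0.286 in control tumours, and 0.052 in abemaciclib tumours without the 2 farthest. Scd1 with luminal markers in control tumours passed under every alternative tried (r from 0.843 to 0.951). In abemaciclib tumours that r turned to -0.362 with library totals and -0.483 without the 2 farthest, and was -0.283 to 0.463 over single tumours. Scd1 with fibroblast markers in control tumours was -0.00304, -0.384 and -0.372 with DESeq2 size factors, library totals and without the 2 farthest, and -0.268 to 0.142 over single tumours. Cd36 with macrophage markers in control tumours was 0.397 without the 2 farthest and -0.216 to 0.326 over single tumours.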
